A study of Mus musculus with 14 samples.

Results

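The Dlk1-Meg3 imprinted domain of mouse chromosome 12 was followed through 14 embryonic stem (ES) cell lines, by means of 6 genes: the noncoding RNAs *Meg3*, *Rian* and *Mirg* and the protein-coding genes *Dlk1*, *Rtl1* and *Dio3*. All 6 were found among the 23298 genes of the table, by their symbols, and all 6 passed the filter on low values in every comparison. The lines came from F1 hybrid blastocysts of reciprocal crosses between C57BL/6J (B) and CAST/EiJ (C) mice, with the mother's strain written first. There were 3 BC XX, 3 BC XY, 2 BC XO, 3 CB XX and 3 CB XY lines, each an independent line from a single blastocyst, untreated, and grown undifferentiated in serum and LIF on inactivated mouse embryonic fibroblasts that were depleted before RNA isolation. The question put to the data was whether the domain was silenced in any line, and whether its RNAs differed with the X complement or the direction of the cross.

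In this domain the maternal chromosome produces long noncoding RNAs together with clusters of microRNAs and snoRNAs, whereas the paternal chromosome produces the protein-coding RNAs. The choice rests on a region between *Dlk1* and *Meg3* that is methylated on the paternal copy only, and gain of methylation on the maternal copy silences *Meg3*, *Rian* and *Mirg*. Such silencing is known from cultured mouse pluripotent lines, in which it accompanies poor contribution to chimeric embryos.

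On the mm9 assembly (NCBIM37, GENCODE vM1) *Dlk1* (chr12:110691033-110701546, plus strand) lies first, followed by *Meg3* (chr12:110779211-110809936, plus strand). *Rtl1* (chr12:110827404-110838540) is the one member on the minus strand, and *Rian* (chr12:110842155-110899919) and *Mirg* (chr12:110973191-110987665) follow on the plus strand. *Dio3* (chr12:111517278-111519307, plus strand) is a gene of a single exon at the far end. Between *Dlk1* and *Dio3* the table listed 74 genes, of which 58 were microRNA hairpin genes and 7 were snoRNA genes.

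**Figure D1:**
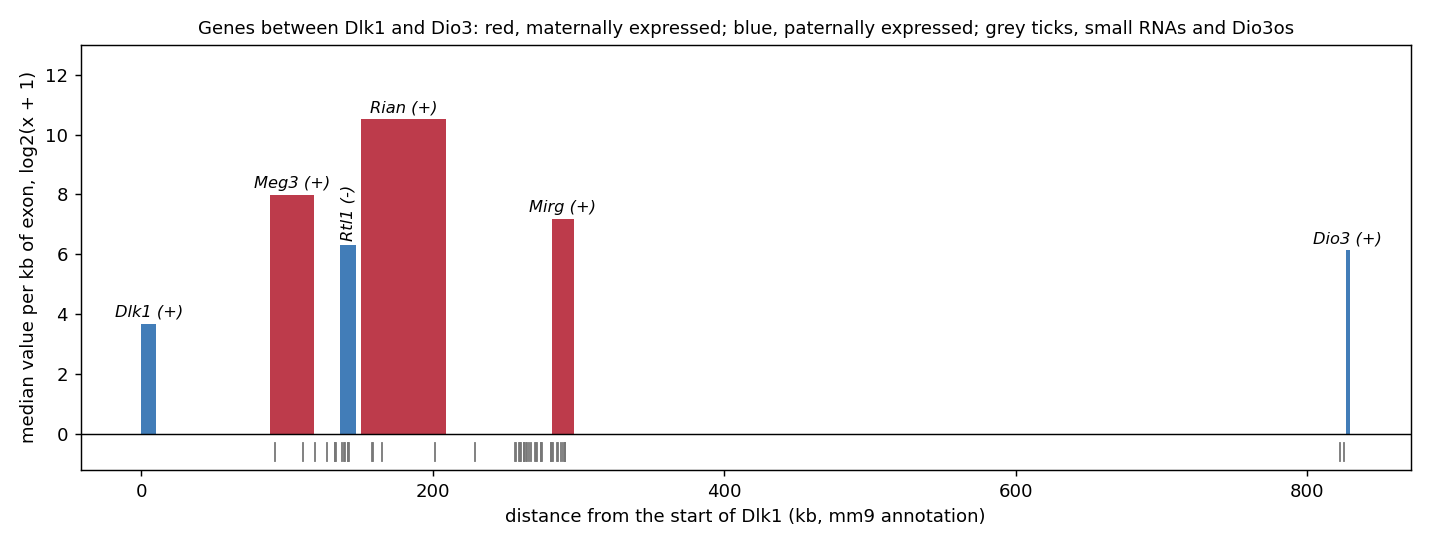
Position of the genes between *Dlk1* and *Dio3* (x axis, distance from the start of *Dlk1* in kb) and, for the 6 members, the median over 14 lines of the value per kb of exon (y axis, log2 of the value plus 1; strand in brackets). *Rian* is the tallest bar and *Dlk1* the lowest, and the grey ticks of small RNAs cluster around *Rtl1* and before and within *Mirg*.

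*Meg3* is the first noncoding RNA after the methylated region, so its promoter is shown next to that of *Rian*, whose level moved with it across lines. Each runs from 250 bases before to 50 bases after the start site of RefSeq on GRCm38.p6, plus strand, at chr12:109540746-109541045 for *Meg3* and chr12:109603695-109603994 for *Rian*. Capitals mark matches to 4 motifs, searched on both strands. The first is the cAMP response element, TGACGTCA. The second is the TATA box, spelled TATATAA. The third, CCAAT, gives the box of that name. The last is TGCCGC, a hexamer bound by ZFP57, a protein that maintains imprints at methylated sites.
Meg3 promoter: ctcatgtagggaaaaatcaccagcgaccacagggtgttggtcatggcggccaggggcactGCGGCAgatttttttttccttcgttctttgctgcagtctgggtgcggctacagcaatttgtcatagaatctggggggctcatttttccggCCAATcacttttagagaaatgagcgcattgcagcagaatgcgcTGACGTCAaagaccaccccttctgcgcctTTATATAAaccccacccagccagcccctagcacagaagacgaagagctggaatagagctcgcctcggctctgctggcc
Rian promoter: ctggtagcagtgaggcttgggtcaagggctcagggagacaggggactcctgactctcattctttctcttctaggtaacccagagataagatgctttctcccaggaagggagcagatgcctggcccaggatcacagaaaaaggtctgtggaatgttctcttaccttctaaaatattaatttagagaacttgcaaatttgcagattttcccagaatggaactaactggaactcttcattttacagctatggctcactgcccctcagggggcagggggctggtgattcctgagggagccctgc
The *Meg3* window held TGACGTCA at bases -57 to -50 from the start site, a CCAAT box at -100 to -96, and TATATAA at -27 to -21, which overlaps a match on the other strand at -28 to -22. It also held TGCCGC on the minus strand, at -190 to -185. Of 32851 promoter windows of this length, 1.79% held the cAMP response element, 3.24% the TATA box, 37.4% the CCAAT box and 11.6% the ZFP57 hexamer. The *Rian* window held none of the 4 motifs. A further *Meg3* start site of RefSeq, with its window at chr12:109545148-109545447, held none of the 4 motifs and 1 CpG dinucleotide. CpG dinucleotides numbered 13 in the *Meg3* window shown and 0 in the *Rian* window, against a median of 7 over all windows. These matches are letters in a window, and no binding or methylation was measured in these lines.

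Inside *Rtl1*, on the opposite strand, lie 6 microRNA hairpins (*Mir431*, *Mir433*, *Mir127*, *Mir434*, *Mir432* and *Mir136*). They come from the maternal chromosome and their microRNAs are fully complementary to the paternal *Rtl1* RNA, which they are known to cut. Their mature sequences (RefSeq) are shown with the seed, bases 2 to 8, in capitals, for 1 microRNA of each hairpin.
miR-431-5p: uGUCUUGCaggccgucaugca
miR-433-3p: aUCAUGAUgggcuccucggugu
miR-127-3p: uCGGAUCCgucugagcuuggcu
miR-434-3p: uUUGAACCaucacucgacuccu
miR-432: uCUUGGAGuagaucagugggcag
miR-136-5p: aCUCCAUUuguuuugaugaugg
The 6 seeds all differ. Libraries of total RNA on this scale hold few reads of microRNA hairpins, and 55 of the 58 hairpin genes had a value of 10 or less in every line, 18 of them 0 in every line. *Mir127* and *Mir136* were at 0 throughout, whereas *Mir432* was seen in every line, from 7.36 in BC XY 3 to 19.5 in CB XY 3. The microRNAs themselves were therefore not measured.

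The authors' values are reads per gene, made comparable between lines by scaling before deposit. If the smallest step of a line is taken as 1 read, the lines held from 11904334 reads (CB XY 2) to 69645408 (BC XX 2). All 10 ES cell markers, among them *Pou5f1* and *Nanog*, were above 0 in every line. All 28 fibroblast markers were detected too, with *Fap* at 0 in 1 line, and their summed value was 118292 to 241704 in the BC XX lines against 12654 to 51886 in the other 11. Of the Y-linked RNAs, *Uty* was 945 to 2088 in the BC XY lines and 1149 in CB XY 1, but 19.6 and 45.4 in 2 lines that carry the CB XY label, numbers 2 and 3, within the 12.8 to 195 of the XX and XO lines. *Ddx3y* was likewise 27.0 and 126 in those 2 lines, against 1084.5 in CB XY 1, whereas *Kdm5d* and *Eif2s3y* did not separate the XY lines from the others. The BC XX lines held Y-linked RNA too, with *Ddx3y* at 328, 486 and 1024, the last close to CB XY 1. The summed Y-linked value was 533 to 1659 in BC XX lines, against 82.4 to 331 in CB XX lines, and its source was not tested. Fold changes, list calls and correlations that use CB XY 2 and CB XY 3 are given with and without them for the genes named. In bulk RNA, fewer cells that express a gene and less RNA in each cell cannot be told apart.

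No line met the rule set for a silenced domain. A line was to be called low if *Meg3*, *Rian* and *Mirg* were each under 10% of their median over the 14 lines, and 0 of 14 lines met this. The rule cannot show silencing in part of the cells of a line, since the RNA was bulk and held fibroblast RNA. Its reference is the median of the same 14 lines, so it cannot show a state that most of them share. The lowest line for all 3 RNAs was BC XY 3, with 56.7% of the median for *Meg3*, 55.2% for *Rian* and 51.9% for *Mirg*. The same line had the lowest *Rtl1*, at 47.2% of the median, and the lowest *Dlk1*, at 60.0%, but its *Dio3* was at 102%. Lower values in this line thus included the maternally expressed RNAs. Of the genes known as paternally expressed, *Dlk1* was 40.2 in this line, close to the 46.2 and 50.7 of BC XY 1 and BC XY 2. The reads of *Rtl1* cannot be told from those of a maternal transcript on the other strand.

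**Figure D2:**
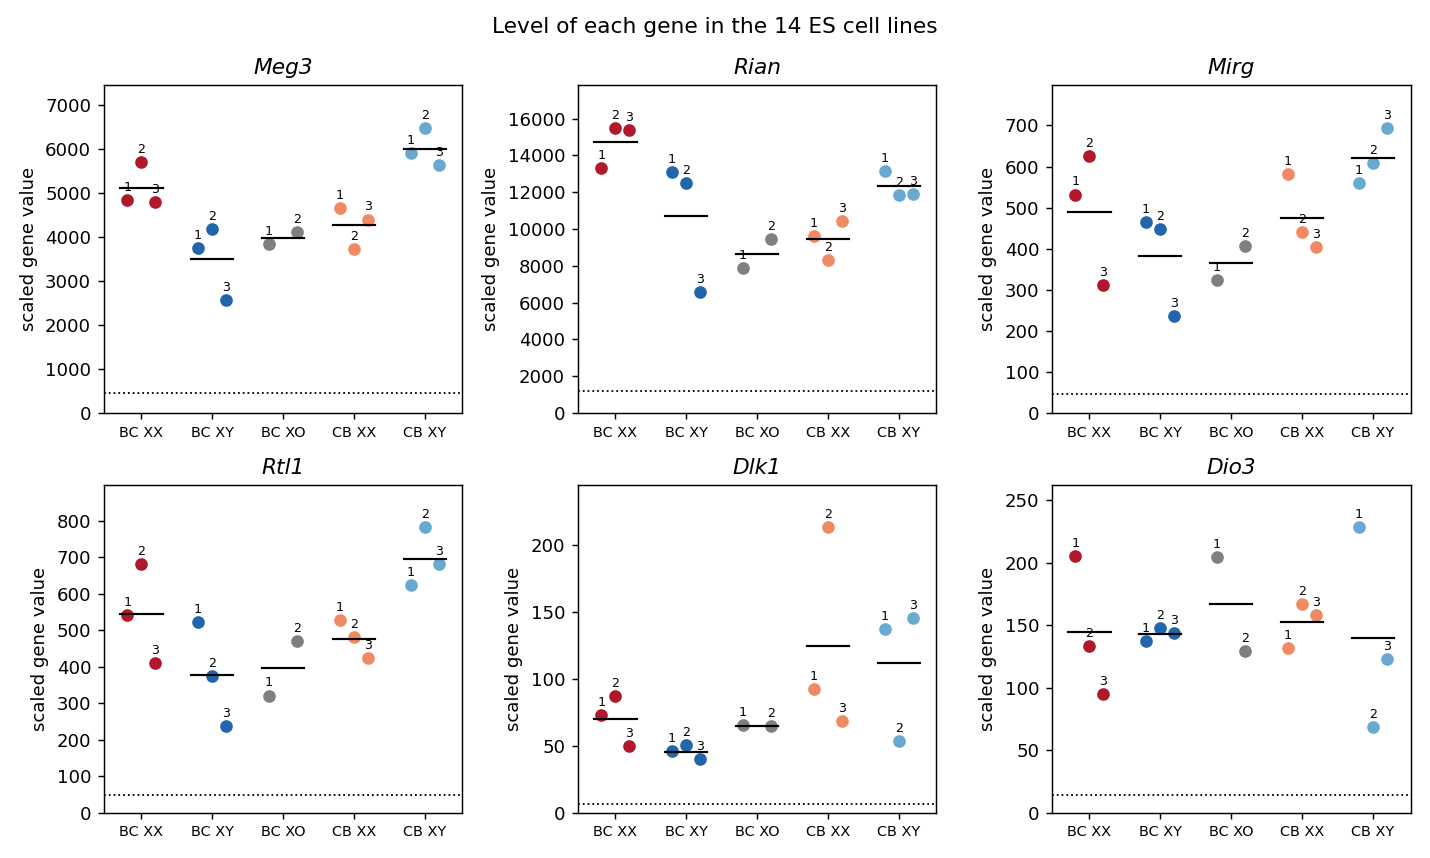
Scaled value of each member (y axis, from 0) in each of the 14 lines (points, numbered by replicate) by group (x axis); bars are group means and the dotted line is 10% of the median of the 14 lines. Every point lies well above the dotted line, and BC XY 3 is the lowest point for *Meg3*, *Rian*, *Mirg*, *Rtl1* and *Dlk1*.

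Per kb of exon, the median level over lines was highest for *Rian* (1450), followed by *Meg3* (251), *Mirg* (144), *Rtl1* (79.0), *Dio3* (69.3) and *Dlk1* (11.8). With these lengths *Rian* was above *Meg3* per kb in every line, since its lowest line (800) exceeded the highest line of *Meg3* (359). The lengths are those of GENCODE vM1, 18089 bases for *Meg3* and 8197 for *Rian*. The annotation used for counting is not given, and other exon lengths could change the order per kb. The ranges of *Meg3* and *Mirg* overlapped, as did those of *Mirg*, *Rtl1* and *Dio3*.

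*Meg3*, the noncoding RNA that lies next to the methylated region, was 4840, 5724 and 4794 in the BC XX lines and 3754, 4199.7 and 2576 in the BC XY lines. It was 3857 and 4119 in the BC XO lines. In the other cross it was 4677, 3726 and 4406 in the CB XX lines and 5915, 6494 and 5651 in the CB XY lines. The 3 CB XY lines held the highest values but for BC XX 2, which lay between CB XY 3 and CB XY 1, and BC XY 3 was lowest. Over all lines *Meg3* spanned 2.52-fold.

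*Rian*, a long RNA that hosts many of the snoRNAs of the domain, was 13289, 15502 and 15403 in the BC XX lines and 13095, 12518 and 6559 in the BC XY lines. It was 7874 and 9456 in the BC XO lines, 9616, 8325 and 10440.1 in the CB XX lines, and 13168, 11855 and 11919 in the CB XY lines. The BC XX lines were the 3 highest, and the BC XO and CB XX lines were all below every XY line other than BC XY 3. *Mirg*, whose primary transcript spans the distal microRNA cluster, was 532, 626 and 311 in BC XX, 465, 448 and 237 in BC XY, and 323 and 408 in BC XO lines. It was 583, 439.9 and 405 in CB XX and 559, 609 and 694 in CB XY lines, so that the groups overlapped, apart from the CB XY lines against the BC XY and the BC XO lines.

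Among the paternally expressed genes, *Rtl1* encodes a retrotransposon-derived protein needed in the fetal vessels of the placenta. It was 542, 682 and 409.6 in BC XX, 523, 374 and 237 in BC XY, 321 and 469.5 in BC XO, 528, 481 and 423 in CB XX, and 624, 782 and 681 in CB XY lines. As with *Meg3*, the CB XY lines were high and BC XY 3 was lowest. Its reads cannot be assigned to *Rtl1* alone, because the sources used here do not say whether strand was used in counting and a maternal transcript runs through it on the other strand. That transcript has a row of its own (*6430411K18Rik*, listed by RefSeq as PEG11as), with values from 141 in BC XY 3 to 466 in BC XX 2. At 1 read per step, both rows came to fractions of a read in CB XX 1 (371.3 for *Rtl1* and 203.7 for *6430411K18Rik*). The rows may therefore share reads and need not be separate counts.

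*Dlk1*, a transmembrane protein related to the Notch ligands, was scarce. It was 73.2, 87.1 and 50.1 in BC XX, 46.2, 50.7 and 40.2 in BC XY, 65.4 and 64.7 in BC XO, 92.4, 213 and 68.4 in CB XX, and 137, 54.0 and 145 in CB XY lines. This was the widest range of the 6 members, 5.31-fold, with CB XX 2 far above the others. *Dio3*, the deiodinase that inactivates thyroid hormones, was 205, 134 and 95.3 in BC XX, 137, 148 and 144 in BC XY, 205 and 129 in BC XO, 132, 167 and 158 in CB XX, and 228, 68.8 and 123 in CB XY lines. All groups overlapped for *Dio3*, and the highest and lowest values both came from lines labelled CB XY. Its antisense RNA *Dio3os* stayed between 1.42 and 8.08.

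When all 6 XX lines were compared with all 6 lines labelled XY, no member passed the threshold. The fold changes lay close to 0, with log2 differences of 0.03 (SE 0.20) for *Meg3* and 0.07 (SE 0.20) for *Rian*. Of the 6 members 0 were called by limma at an adjusted p under 0.05 (0 also at an unadjusted p under 0.05), against 5.21% of all genes tested. The 95% interval for *Meg3* ran from -0.39 to 0.46 on the log2 scale, and the widest, for *Dlk1*, from -0.49 to 1.13. Without CB XY 2 and CB XY 3, as labelled, the *Meg3* difference was 0.24 (adjusted p = 0.585) and the *Rian* difference 0.11 (adjusted p = 0.859).

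Within the crosses the direction was not shared. In BC lines *Meg3* was higher in XX (5119 ± 524, SD, n = 3) than in XY lines (3510 ± 839, SD, n = 3), a log2 difference of 0.57 (SE 0.17, adjusted p = 0.0666), and the lines did not overlap. *Rian* was also higher in each BC XX line, with means of 14731 ± 1250 and 10724 ± 3619 (SD, n = 3 each) and a log2 difference of 0.52 (SE 0.21, adjusted p = 0.163). No member was called (0 of 6, 2 at an unadjusted p under 0.05), against 5.7% of all genes, and 2 of 6 did not overlap, against 27.1%. In the same contrast 20 of 28 fibroblast markers were called higher in BC XX lines, with a median log2 difference of 2.35. The 3 markers of 2-cell-like cells that could be tested were called higher as well. Of these, *Zscan4c* and *Zscan4f* reached 10 only in BC XX lines (at most 49.4 and 39.9). They thus passed the filter only through the group where they were high, and their calls are no independent result. The part of the 2-cell-like markers in the *Meg3* and *Rian* values was not tested. With the fibroblast level as a covariate the log2 difference was 0.59 for *Meg3* (adjusted p = 0.60) and 0.06 for *Rian* (adjusted p = 0.983). The level (mean log2) was 10.6 to 11.7 in BC XX lines and at most 9.81 in any other line. This fit therefore cannot separate the level from the group, and its estimates do not show how much of a difference came with fibroblast RNA.

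In CB lines the order was the opposite. *Meg3* was 4269.6 ± 489.9 in XX and 6019.9 ± 431 in the lines labelled XY (SD, n = 3 each), a log2 difference of -0.50 (SE 0.17, adjusted p = 0.13). *Rian* differed by -0.38 (SE 0.21, adjusted p = 0.356) and *Rtl1* by -0.54 (SE 0.27, adjusted p = 0.309). The CB XX and CB XY lines did not overlap for these 3 members, against 23.2% of all genes, but 0 of 6 were called (1 at an unadjusted p under 0.05), against 3.57%. No fibroblast marker was called in this contrast (0 of 28, limma), with 23 of 28 positive and a median of 0.33 on the log2 scale. Of 8 primitive endoderm markers 1, *Foxa2*, was called lower in CB XX lines (-2.14, and -3.07 without CB XY 2 and CB XY 3 as labelled). Medians were -0.69 for the primitive endoderm markers and -1.35 for 7 trophoblast markers (0 called, 2 positive), against -0.02 for all genes. The part of these markers in the values of the members was not tested. The line labelled CB XY 2 held the highest *Meg3* of all 14 lines with the lowest summed fibroblast level, 12654. Without CB XY 2 and CB XY 3, as labelled, the *Meg3* difference was -0.48 (adjusted p = 0.481), that of *Rian* -0.48 (adjusted p = 0.573) and that of *Rtl1* -0.39 (adjusted p = 0.747).

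The difference between the crosses was itself examined. The log2 difference between XX and XY lines was larger in BC than in CB lines by 1.07 for *Meg3* (SE 0.24, unadjusted p = 0.00055, adjusted p = 0.146). For *Rtl1* it was larger by 1.10 (SE 0.38, adjusted p = 0.381) and for *Rian* by 0.90 (SE 0.30, adjusted p = 0.359). None of the 6 members passed the threshold (3 at an unadjusted p under 0.05, limma), as did 0.0738% of all genes. All 28 fibroblast markers had a positive difference between the crosses, with a median of 2.13 on the log2 scale against -0.02 for all genes, and 0 were called. With their level as a covariate the difference was 1.08 for *Meg3* (adjusted p = 0.373) and 0.50 for *Rian* (adjusted p = 0.721). Since every BC XX line lay above all other lines in that level, the fit cannot separate it from the group. Without CB XY 2 and CB XY 3, as labelled, it was 1.05 for *Meg3* (adjusted p = 0.480), 1.00 for *Rian* (adjusted p = 0.601) and 0.95 for *Rtl1* (adjusted p = 0.754).

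**Figure D3:**
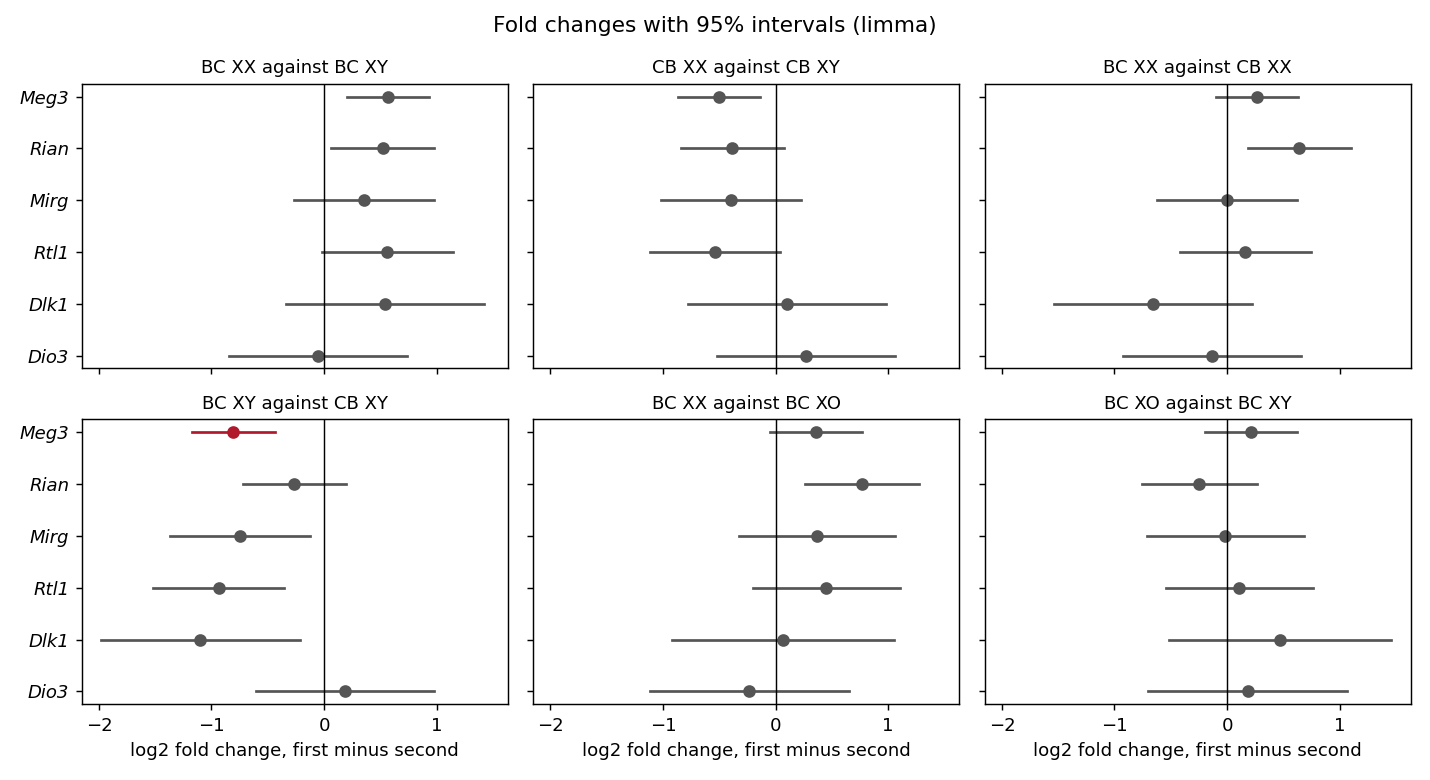
Log2 fold change of each member in 6 pairwise comparisons (x axis, first group minus second; points are limma estimates and lines 95% intervals; red marks an adjusted p under 0.05). *Meg3*, *Rian*, *Mirg* and *Rtl1* lie to the right in BC XX against BC XY and to the left in CB XX against CB XY, and *Meg3* in BC XY against CB XY is the one red point.

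The direction of the cross was compared within each X complement. *Meg3* was lower in BC XY than in CB XY lines by 0.81 on the log2 scale (SE 0.17, adjusted p = 0.0499), a ratio of 0.572. This was the 1 member called of 6, against 0.64% of all genes tested, and 4 of 6 members did not overlap, against 26.8%. Those 4 were *Meg3*, *Mirg* (-0.75, adjusted p = 0.187), *Rtl1* (-0.94, adjusted p = 0.101) and *Dlk1* (-1.10, adjusted p = 0.173). The reads of *Rtl1* cannot be told from those of a maternal transcript on the other strand. *Dlk1* reached 50.7 in BC XY 2, against 54.0 in CB XY 2. *Dio3*, also known as paternally expressed, differed in the other direction (0.19, SE 0.37). The *Meg3* call lay at the threshold. Of 21 alternatives 6 kept the call at 0.05, among them the fits with the fibroblast level as a covariate and with the replicate number as a block. With single lines left out, the call was lost for any 1 of 11 lines and kept only without BC XX 3, CB XX 1 or CB XX 3. It was also lost with a pseudocount of 1 (adjusted p = 0.0554) and without CB XY 2 and CB XY 3, as labelled (-0.78, adjusted p = 0.355), where *Mirg* (-0.60), *Rtl1* (-0.79) and *Dlk1* (-1.49) kept their direction, and over the alternatives its adjusted p ranged from 0.0215 to 0.355. No fibroblast marker was called in this contrast (0 of 28, limma), nor any of 8 primitive endoderm or 7 trophoblast markers. The mother's strain, and so the *Meg3* allele that is transcribed, changes with the cross, and the reads were aligned to a C57BL/6J genome, so that strain, cross and alignment cannot be told apart.

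Between the XX lines of the crosses, *Rian* was 14731 ± 1250 in BC XX and 9460 ± 1066 in CB XX lines (SD, n = 3 each), a log2 difference of 0.64 (SE 0.21, adjusted p = 0.0787). *Meg3* differed by 0.26 (SE 0.17, adjusted p = 0.343). Both were among the 2 of 6 members that did not overlap, against 26.8% of all genes, and 0 of 6 were called (1 at an unadjusted p under 0.05), against 7.15%. The fibroblast markers were called higher in BC XX lines for 16 of 28, as were 3 of 8 primitive endoderm, 2 of 7 trophoblast (*Krt8* and *Krt18*) and 2 of 3 2-cell-like markers tested. The last 2, *Zscan4c* and *Zscan4f*, had passed the filter only through the BC XX lines. The trophoblast marker *Tfap2c* and the ES cell marker *Utf1* were called lower, and the median of the 10 ES cell markers was -0.57. With the fibroblast level as a covariate the *Rian* difference was 0.30 (adjusted p = 0.805), but that level did not overlap between these groups, so the fit cannot separate level and group. The part of the other markers was not tested. Without BC XY 3, a line outside this contrast that enters the shared spread, *Rian* was called (adjusted p = 0.0171).

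The XO lines share the BC background with a single X. *Rian* was 8665 ± 1119 (SD, n = 2) in BC XO lines, a log2 difference of 0.77 (SE 0.24, adjusted p = 0.0743) from BC XX lines. *Meg3* differed by 0.36 (SE 0.19, adjusted p = 0.276). No member was called (0 of 6, 1 at an unadjusted p under 0.05), against 4.66% of all genes, and 2 of 6 did not overlap, against 47.2%. Of the 28 fibroblast markers 13 were called higher in BC XX lines, as were all 3 markers of 2-cell-like cells tested. Of those 3, *Zscan4c* and *Zscan4f* had passed the filter only through the BC XX lines. With the fibroblast level as a covariate the *Rian* difference was 0.42 (adjusted p = 0.674). That level did not overlap between these groups, so the fit cannot separate level and group. Without BC XY 3, which is outside this contrast, *Rian* was called (adjusted p = 0.0206). The comparison shares the BC XX lines with those above. Between BC XO and BC XY lines, *Rian* differed by -0.25 (SE 0.24) and *Meg3* by 0.21 (SE 0.19), with 0 of 6 called (0 at an unadjusted p under 0.05), against 0.00615% of all genes.

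Across the 14 lines *Meg3* moved with the other maternally expressed RNAs and with the *Rtl1* row, on the log2 scale. Pearson's r with *Meg3* was 0.717 for *Rian* (permutation test, two-sided, adjusted p = 0.00736; Spearman's rho 0.648, adjusted p = 0.0302). It was 0.807 for *Mirg* (adjusted p = 0.00147, permutation; rho 0.705, adjusted p = 0.0181) and 0.877 for *Rtl1* (adjusted p = 0.00048, permutation; rho 0.78, adjusted p = 0.00888). Without BC XY 3 and CB XY 2, the lines farthest from the median of *Meg3*, r was 0.608, 0.64 and 0.711. Taken as deviations from group means, r was 0.852, 0.733 and 0.709. Without CB XY 2 and CB XY 3, as labelled, r was 0.779, 0.763 and 0.826 over 12 lines, with rho of 0.804, 0.594 and 0.664. Those rho had adjusted p of 0.0153, 0.0927 and 0.067 (permutation), so that by rank only *Rian* passed the threshold there. The relation was weaker for *Dlk1* (r = 0.333, permutation, adjusted p = 0.339; rho 0.349) and negative for *Dio3* (r = -0.275, permutation, adjusted p = 0.339; rho -0.244), and neither passed the threshold among the 6 relations examined. The mean log2 level of the fibroblast markers gave r = 0.279 with *Meg3* (permutation, adjusted p = 0.339; rho 0.209). As deviations from group means these r turned or fell to -0.186 for *Dlk1*, -0.201 for *Dio3* and -0.0231 for the fibroblast markers. They were, without CB XY 2 and CB XY 3 as labelled, 0.397, 0.121 and 0.561 (permutation, adjusted p = 0.24, 0.711 and 0.0865).

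**Figure D4:**
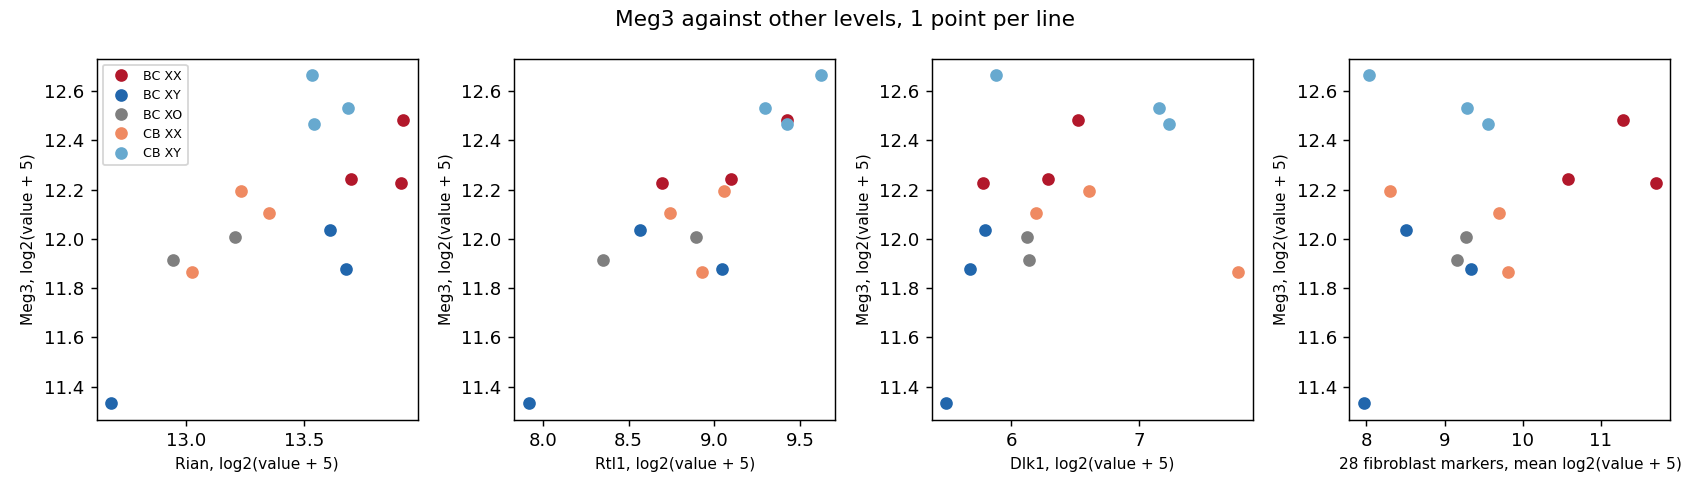
*Meg3* (y axis) against *Rian*, *Rtl1*, *Dlk1* and the mean of 28 fibroblast markers (x axes), all as log2(value + 5), with 1 point per line coloured by group. *Meg3* rises with *Rian* and *Rtl1*, BC XY 3 is the lowest point at the left of each panel, and the CB XY lines are high for *Meg3* at low to middle fibroblast levels.

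The ratio of *Rian* to *Meg3* within a line was examined after the values had been seen, and is given as a description without a test. It was 2.71 to 3.21 in the BC XX and 2.55 to 3.49 in the BC XY lines. In the BC XO lines it was 2.04 and 2.30, in the CB XX lines 2.06 to 2.37 and among CB XY lines 2.23, 1.83 and 2.11. All 6 BC XX and BC XY lines thus lay above all other lines, the BC XO lines included. *Mirg* was 6.50% to 12.5% of the *Meg3* value and *Rtl1* 8.33% to 13.9%, with overlapping groups.

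**Figure D5:**
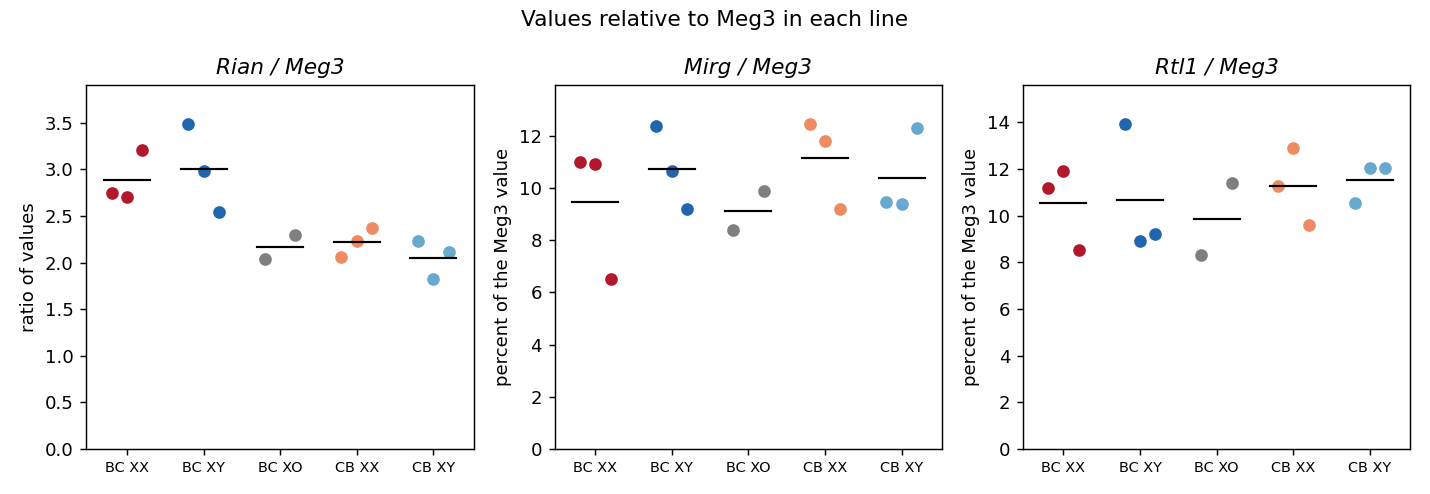
*Rian*, *Mirg* and *Rtl1* relative to *Meg3* in each line (points; bars are group means; y axes start at 0). For *Rian* the BC XX and BC XY points lie at 2.55 or more and the others at 2.37 or less, whereas the groups overlap for *Mirg* and *Rtl1*.

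Among 15426 genes, those whose levels over the 14 lines were most like *Meg3* by Pearson's r on the log2 scale, leaving aside the genes from *Dlk1* to *Dio3*, were *Pisd-ps1* (0.861), *Dnajc30* (0.843), *Tsga14* (0.839), *Gpr146* (0.824) and *Bola3* (0.806). Of these 5, 4 were lowest in BC XY 3. In the domain r with *Meg3* was 0.717 for *Rian*, 0.807 for *Mirg* and 0.877 for *Rtl1*. The 5 genes were picked as the highest of 15426 on these same lines, whereas the members were not picked by r. The values of the 5 genes are therefore no scale for those of the members.

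Neighbouring and related genes were counted by list. Between XX and XY lines of either cross, and between the XY lines of the crosses, 0 of 15 flanking genes tested outside the domain were called, with medians of -0.06, -0.16 and -0.06 on the log2 scale against -0.04, -0.02 and 0.01 for all genes. *Degs2* alone was called over the 12 XX and XY lines, lower in XX (-0.52, adjusted p = 0.0448). *Hsp90aa1*, the flanking gene left out of the test, was listed at 0 in all BC XX lines. Of 22 regulators of DNA methylation and chromatin tested, *Dnmt3a* (-0.62, adjusted p = 0.0442) and *Dnmt3b* (-1.35, adjusted p = 0.0171), the de novo DNA methyltransferases, were lower in XX than in XY lines when the crosses were pooled, and the X-linked chromatin remodeller *Atrx* was higher (0.86, adjusted p = 0.00201). In the same comparison the median of the 22 was -0.07. Of these genes *Atrx* was still called without CB XY 2 and CB XY 3, as labelled (0.88, adjusted p = 0.0118), but *Degs2* (-0.53, adjusted p = 0.139), *Dnmt3a* (-0.73, adjusted p = 0.0687) and *Dnmt3b* (-1.37, adjusted p = 0.0673) were not. *Zfp57* and *Trim28*, which protect imprints, were not among the genes called.

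Of 14 genes of the Notch pathway, to which *Dlk1* is related, *Dll1* (-2.16, adjusted p = 0.0472), *Dll3* (-1.81, adjusted p = 0.00762) and *Notch2* (-0.61, adjusted p = 0.0237) were lower in CB XX than in CB XY lines. *Dll3* was still called without CB XY 2 and CB XY 3, as labelled (-2.45, adjusted p = 0.0179), but *Dll1* (-2.36, adjusted p = 0.258) and *Notch2* (-0.72, adjusted p = 0.15) were not. The median of the 14 was -0.63 in that contrast, against -0.02 for all genes, and 0 of the 14 had a positive fold change. *Dlk1* itself differed by 0.10 there (SE 0.41, adjusted p = 0.927), and by -0.30 without those 2 lines (adjusted p = 0.861). Of 7 thyroid hormone pathway genes tested, 0 were called in either cross between XX and XY lines, and of 8 retrotransposon-derived genes related to *Rtl1*, 0 were called. Of 6 other imprinted noncoding RNAs, *Xist* was called higher in XX over the 12 lines, in BC XX against BC XY and in BC XX against BC XO lines. The 5 others, *H19*, *Kcnq1ot1*, *Airn*, *Peg13* and *Nespas*, were not called, and within CB 0 of the 6 were. All 6 had a positive fold change, XX against XY, over the 12 lines, within BC and within CB. Their medians were 0.53, 0.69 and 0.38, against -0.03, -0.04 and -0.02 for all genes.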

How the data were processed

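RNA was sequenced from 14 ES cell lines. According to the study's methods, single-end reads of stranded total RNA libraries went through TopHat2 (mm9), with Cufflinks for the gene comparisons. The deposited values are a read signal per gene that the authors had scaled to a common depth (sums of 28150946 to 30657803 per line). The counting tool, annotation and use of strand are not given in the sources used here. In each line 98.9% to 99.4% of low values are whole multiples of 1 step within 0.1 step, and 3 steps are taken as the limit of detection.

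Values were used as log2(value + 5), so fold changes of low genes are understated. Genes with 10 or more in as many lines as the smallest group holds were tested with limma 3.58.1 (trended variance, R 4.3.3), with p-values adjusted over all genes by Benjamini and Hochberg and a threshold of 0.05. XX and XY were compared over 12 lines, other pairs in a model of 5 groups on 14 lines. A further 15 genes, at 0 in a whole group and at 100 or more elsewhere, were not tested. Correlations used 100000 permutations. A count test that had been planned was not run, since the values are not counts. The alternatives tried are named in the closing section. The 3 CB XX lines are numbered by column order. The members and gene lists were chosen with earlier results of these data known. The text names the 6 members, genes of these lists and the 5 genes most like *Meg3*. Lines are separate blastocyst derivations. The limma fit was tested on simulated data.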

Additional observations from a re-analysis of the deposited data

Results flagged for a closer look

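*Rian* in BC XY 3 (6559) stood far below the other 5 lines labelled XY, its gap to the next line taking 0.849 of the whole range on the log2 scale. Such a gap was looked for in 12 groups (6 members in XX and in XY lines), and the limit used for it is passed by chance in about 1 in 20 groups. The fold changes of *Meg3* and *Rian* between XX and XY lines had opposite directions in the BC and CB crosses with no overlap of lines in either, and the differences between crosses, 1.07 and 0.905 on the log2 scale, did not pass the adjusted threshold.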

How the results depend on the processing

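No fold change of a member that passed the threshold in the main analysis or an alternative changed sign. Of 954 fold changes of members under alternatives, 935 kept their side of the threshold, 16 lost the call and 3 gained it. All 16 were *Meg3* in BC XY against CB XY lines, where the count of members called fell from 1 to 0 with a pseudocount of 1, without a filter on low values, with median-ratio size factors, at an FDR of 0.01, and without CB XY 2 and CB XY 3 as labelled, and ranged from 0 to 1 over single lines left out. By Pearson's r, the correlations of *Meg3* kept their side of the threshold with a pseudocount of 1, within groups and without CB XY 2 and CB XY 3 as labelled (the last chosen after seeing the data, as was the repeat of the list calls without these lines). By Spearman's rho, *Mirg* (adjusted p = 0.0927, permutation) and *Rtl1* (adjusted p = 0.067, permutation) lost the threshold without CB XY 2 and CB XY 3. The permutations within groups took no account of the fitted group means, so their p-values are too small. Median-ratio size factors moved the lowest line of no member by more than the spread.

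The counts over all genes moved more. Without a filter they were 411 (758 with it) in BC XX against BC XO, 586 (1162) in BC XX against CB XX, 10 (104) in BC XY against CB XY and 4 (12) for the interaction. With the fibroblast level as a covariate they were 483 (797) in XX against XY, 8 (927) in BC XX against BC XY, 36 in BC XX against BC XO, 0 (1) in BC XO against BC XY, 45 in BC XX against CB XX and 1051 in BC XY against CB XY. In pairwise comparisons with BC XX lines this level did not overlap between the groups, so the fit cannot separate level and group there. At an FDR of 0.01 they were, in the order of the report's comparisons, 183 for XX against XY, 195 and 114 within BC and CB, 37 and 0 for XO against XX and XY, 150 and 3 between the crosses for XX and XY, and 0 for the interaction. With the cross as a covariate XX against XY gave 1697. Without CB XY 2 and CB XY 3 as labelled, the counts were 313 for XX against XY, 133 (581) within CB, 2 for BC XY against CB XY and 2 for the interaction.

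With single lines left out, the members called ranged from 0 to 1 in BC XX against BC XO, BC XX against CB XX and BC XY against CB XY, and were 0 elsewhere. All genes called ranged from 410 to 1746 in XX against XY, 229 to 1144 within BC, 145 to 653 within CB, 5 to 1093 in BC XX against BC XO, 0 to 2 in BC XO against BC XY, 119 to 2576 in BC XX against CB XX, 2 to 422 in BC XY against CB XY and 0 to 25 for the interaction.

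Same-numbered lines did not deviate together (r of -0.172, 0.254 and -0.0546 for BC XX with BC XY, and 0.27, 0.0158 and -0.22 for BC XY with CB XY), so that the replicate numbers were not taken as pairs. With the number as a replicate block, *Meg3* was called in BC XX against BC XY (1 member, adjusted p = 0.0413), and all genes called were 332 in BC XX against BC XO and 368 in BC XY against CB XY. No blocked fit was made for comparisons with CB XX lines, whose columns carry no title number. The planned count test on recovered reads was not run. Depth limits *Dlk1* and the hairpin genes most, since 3 reads amount to a value of 7.37 in CB XY 2.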
